A study of Mus musculus with 2 samples.

Results

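The CC chemokines are small secreted proteins named for a pair of adjacent cysteines near the start of the mature protein. The genes described here are Ccl1, Ccl2, Ccl3, Ccl4, Ccl5, Ccl6, Ccl7, Ccl8, Ccl11 and Ccl21a, 10 of the 31053 genes in the deposited tables, found by symbol in 11 rows because Ccl21a has 2 rows. They were followed across the cell classes of 2 droplet single-cell RNA libraries of mouse colon. The genes were selected on their measured UMI levels in the cell classes of these same libraries, so every value below is a description and none is a test. Both libraries came from wild-type C57BL/6 mice. The THC library was made after Δ9-tetrahydrocannabinol, the main psychoactive compound of cannabis, at 10 mg/kg, and the vehicle library after the vehicle alone. How many mice stand behind a library, their age and sex and the time of dosing were not given in the sources used here. Per the labels' protocols, epithelium was loosened with EDTA, the remaining tissue was digested with enzymes, and a Percoll gradient enriched the lamina propria.

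Chemokines guide leukocytes by binding receptors that span the membrane of the responding cell, and atypical receptors take the ligands up without signalling for migration. Ccl2 and Ccl7 draw monocytes through Ccr2, Ccl11 draws eosinophils through Ccr3, Ccl3, Ccl4 and Ccl5 draw monocytes and T cells, Ccl1 acts on Ccr8, and Ccl21a leads cells that bear Ccr7 into lymphatic vessels and lymph nodes. Inflammatory signals that act through NF-κB, such as tumour necrosis factor and interleukin 1, are known to induce many of the inflammatory members, while Ccl21a is made constitutively by lymphatic endothelium and in lymphoid organs.

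The coding sequence around the cysteine pair is shown because this pair is what the members share and because the libraries can tell the members apart only by letters that differ. The stretches below run 5′ to 3′ over 54 bases in frame, from GENCODE mouse release 21 (GRCm38). Capitals mark the 2 adjacent cysteine codons, and 8 codons stand on either side.
Ccl2: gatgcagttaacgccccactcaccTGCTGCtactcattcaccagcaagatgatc
Ccl7: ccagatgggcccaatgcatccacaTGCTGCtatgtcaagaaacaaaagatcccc
Ccl8: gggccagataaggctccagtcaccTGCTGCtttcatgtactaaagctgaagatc
Ccl11: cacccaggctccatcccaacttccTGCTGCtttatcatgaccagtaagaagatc
Ccl3: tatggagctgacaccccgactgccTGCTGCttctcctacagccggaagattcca
Ccl4: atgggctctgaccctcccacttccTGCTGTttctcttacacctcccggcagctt
Ccl6: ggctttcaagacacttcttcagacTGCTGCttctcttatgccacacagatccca
Ccl21a: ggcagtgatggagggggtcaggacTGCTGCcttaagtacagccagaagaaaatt

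All 10 members carried exactly 1 such pair in the longest coding sequence of that annotation. Identity was counted over all columns of an alignment, gaps included. It was 66.3% for the coding sequences of Ccl7 and Ccl11, 66.7% for Ccl3 and Ccl4, and 44.6% for Ccl2 and Ccl7. The Ccl2 coding sequence used has 444 bases and that of Ccl7 291, so gaps lower the last value. The longest run of letters shared by the Ccl2 and Ccl7 transcripts was 23 bases, and by the Ccl3 and Ccl4 transcripts 9 bases. Ccl6 shared at most 25 bases with its neighbour Ccl9. Ccl21a is the exception, since its coding sequence matched that of Ccl21b at 99.5% of positions with a shared run of 208 bases. The counting may therefore split or drop reads among the Ccl21 copies: the main Ccl21a row held 355 THC and 547 vehicle UMIs, the other Ccl21a row 1 and 3, and the rows of Ccl21b and Ccl21c 0. In the RefSeq gene order (GRCm38.p6), Ccl2, Ccl7, Ccl11, Ccl12, Ccl8 and Ccl1 follow one another, and so do Ccl5, Ccl9, Ccl6, Ccl3 and Ccl4.

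A barcode was kept as a cell with at least 1000 UMIs (unique molecular identifiers, which count RNA molecules), at least 200 genes and under 10% mitochondrial UMIs. This left 396 THC cells with a median of 8598.5 UMIs and 630 vehicle cells with a median of 7122 UMIs, and no barcode was shared. The mitochondrial limit removed 36.9% of THC and 30.8% of vehicle barcodes past the other limits. Cells were clustered without any chemokine or chemokine receptor gene, and clusters were named from marker genes as "X-like" classes. Levels are CPM, the UMIs of a gene over all UMIs of a class scaled to a total of 1000000, with exact Poisson 95% intervals, and shares of cells carry exact Clopper-Pearson 95% intervals. These intervals and the floors for a count of 0 cover counting error only. With 1 library per treatment no difference can be set against a spread between mice, and no p-value was computed.

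Each member lay mainly in a single class of cells, and for all 10 genes the class with most UMIs was the same in both libraries and held at least 61.3% of them. Fibroblast-like cells held 83.0% of all THC Ccl2 UMIs and 79.0% of all vehicle Ccl2 UMIs. They also held 63.4% and 73.5% of Ccl7, 90.0% and 96.8% of Ccl11, the main eosinophil chemoattractant, and 84.4% and 63.9% of Ccl8. Macrophage-like cells held 80.0% and 94.9% of Ccl3 and 61.3% and 96.1% of Ccl4. T-like cells held 73.2% and 67.7% of Ccl5, goblet-like cells 83.8% and 83.5% of Ccl6, and lymphatic endothelial-like cells 99.7% and 99.6% of Ccl21a. All Ccl1 UMIs, 133 THC and 28 vehicle, lay in a small cluster of NK or innate lymphoid-like cells.

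**Figure D1:**
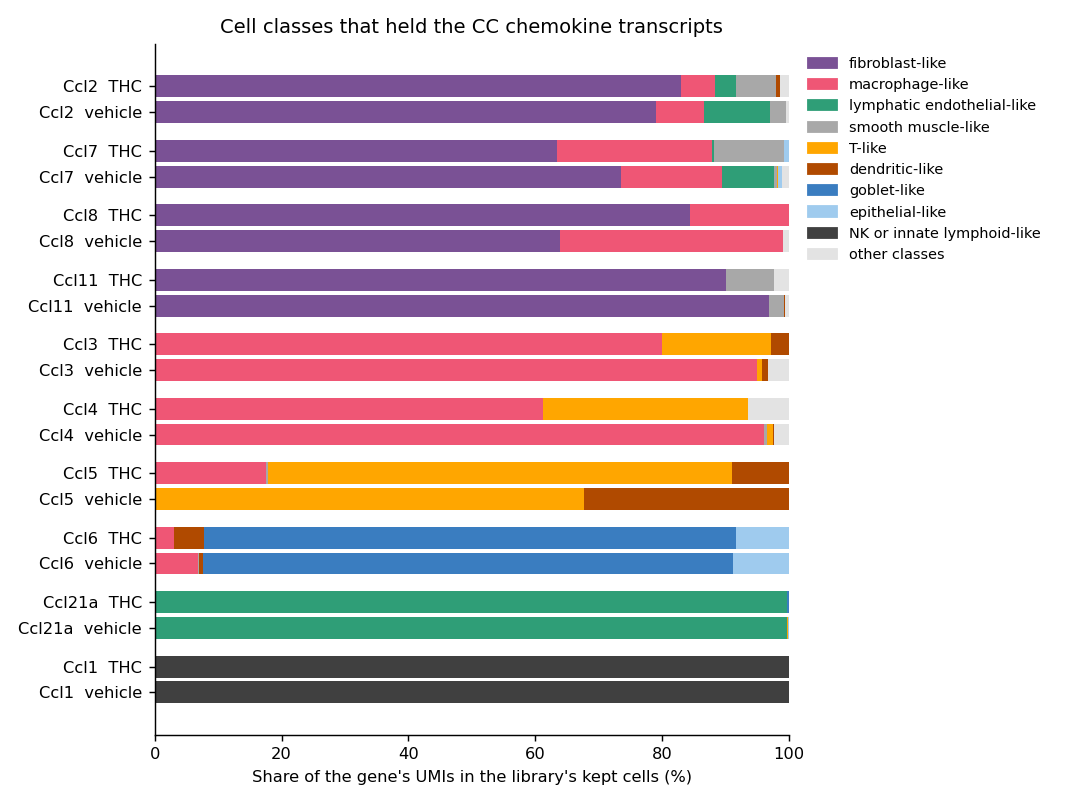
Share of each gene's UMIs (x axis, percent) held by each cell class in the kept cells of the THC and vehicle libraries, with 1 bar per gene and library. Ccl2, Ccl7, Ccl8 and Ccl11 lay mainly in fibroblast-like cells, Ccl3 and Ccl4 in macrophage-like cells, Ccl5 in T-like cells, Ccl6 in goblet-like cells, Ccl21a in lymphatic endothelial-like cells and Ccl1 in NK or innate lymphoid-like cells.

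Ccl2, the monocyte chemoattractant MCP-1, had 980 UMIs in 93 THC fibroblast-like cells and 2151 UMIs in 156 vehicle ones. That is 1431 CPM (1343 to 1524) and 1907 CPM (1827 to 1989). After thinning each cell to 1000 UMIs, a Ccl2 UMI was left in 30.1% of the THC cells (21.03 to 40.5) and 28.2% of the vehicle cells (21.3 to 35.96), against 39.8% and 41.0% unthinned. Epithelial-like cells, which should lack the gene, held it in 0 of 84 THC cells, which allows a share of up to 3.57%, and in 2 of 127 vehicle cells (1.57%, unthinned). The median depth was 7696 and 7142 UMIs in the fibroblast-like cells and 20072 and 14268 UMIs in the epithelial-like cells. Positive THC fibroblast-like cells had up to 435 UMIs with a median of 9, and positive vehicle ones up to 259 with a median of 7.5. The 2 richest THC cells and the 6 richest vehicle cells held at least 50% of the Ccl2 UMIs of their class.

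The nearest leukocyte source was checked in the same cells. Over all fibroblast-like cells the 9 macrophage markers summed to 9 THC and 7 vehicle UMIs (13.1 and 6.21 CPM), against 16558 and 21043 CPM in the macrophage-like cells. C1qb, Csf1r, Fcgr1 and Mrc1 were at 0 in both libraries. Of the Ccl2 UMIs of the class, 98.7% (THC) and 99.5% (vehicle) lay in cells with no UMI of any of the 9 markers. The THC matrix also holds barcodes with under 100 UMIs, whose RNA is free or nearly so, and Ccl2 stood at 19.6 CPM in them against 267 CPM in the kept cells.

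Fibroblast-like cells fell into 4 clusters that differed in their chemokines. The cluster led by Has1, Gfpt2 and Pi16 held most UMIs of Pi16 (93.9% THC, 97.5% vehicle) and Col14a1 (73.4%, 81.3%). These genes are known for fibroblasts around vessels and in the outer layers of organs. Both are among the 10 leading genes of the cluster, so these shares describe it and give no separate support for a name. The 25 THC and 51 vehicle cells of the cluster were 26.9% and 32.7% of the class. Ccl2 stood at 4827 CPM in its THC and 4522 CPM in its vehicle cells, with 786 and 1727 UMIs. Ccl7, also called MCP-3, stood there at 1284 and 2192 CPM, with 209 and 837 UMIs. In the cluster led by Igfbp3, Sfrp1 and Adamdec1, a marker of lamina propria fibroblasts, Ccl2 was at 516 and 542 CPM in 48 THC and 80 vehicle cells, and Ccl7 at 30.04 and 91.2 CPM. Both genes were therefore higher in the Has1-led cluster than in the Igfbp3-led cluster in either library.

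The cluster led by Bmp2, Nrg1 and Procr, which also carried Bmp7 and Pdgfra, stood apart. Its 13 THC and 20 vehicle cells had 0 UMIs of Ccl7, Ccl8 and Ccl11 in both libraries, which allows a share of positive cells of up to 23.1% and 15%. Ccl2 had 0 THC and 8 vehicle UMIs there. In the small cluster led by Ces1d, with 7 THC and 5 vehicle cells, 101 of the 101 vehicle Ccl2 UMIs came from 1 cell. Ccl11 had 85 and 62 UMIs there, in 6 of 7 THC and 5 of 5 vehicle cells.

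Ccl11, eotaxin, was the most widely detected member in fibroblast-like cells. It had 787 THC and 1487 vehicle UMIs (1150 and 1318 CPM) and was seen in 43.0% (32.8 to 53.7) and 40.4% (32.6 to 48.5) of thinned cells, or 62.4% and 65.4% unthinned, and in 0 of 84 and 0 of 127 epithelial-like cells. Unlike Ccl2 and Ccl7 it was near level between the larger clusters of the THC library, at 1320 CPM in the Has1-led and 1330 CPM in the Igfbp3-led cells. In the vehicle library it stood at 1995 and 1141 CPM. Positive cells had a median of 7 Ccl11 UMIs in each library, with maxima of 66 and 93. It took 10 THC and 16 vehicle cells to reach 50% of the UMIs of the class.

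Ccl8, or MCP-2, was sparse, with 32 THC and 97 vehicle UMIs in all. Fibroblast-like cells held 27 and 62 of them, and the Igfbp3-led cluster 19 and 48. After thinning 3.23% (THC) and 3.85% (vehicle) of the class held Ccl8, against 16.1% and 13.5% unthinned. The remaining UMIs lay in macrophage-like cells, 5 and 34, apart from 1 in a vehicle B-like cell. A single vehicle macrophage-like cell carried 23 of the 34.

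**Figure D2:**
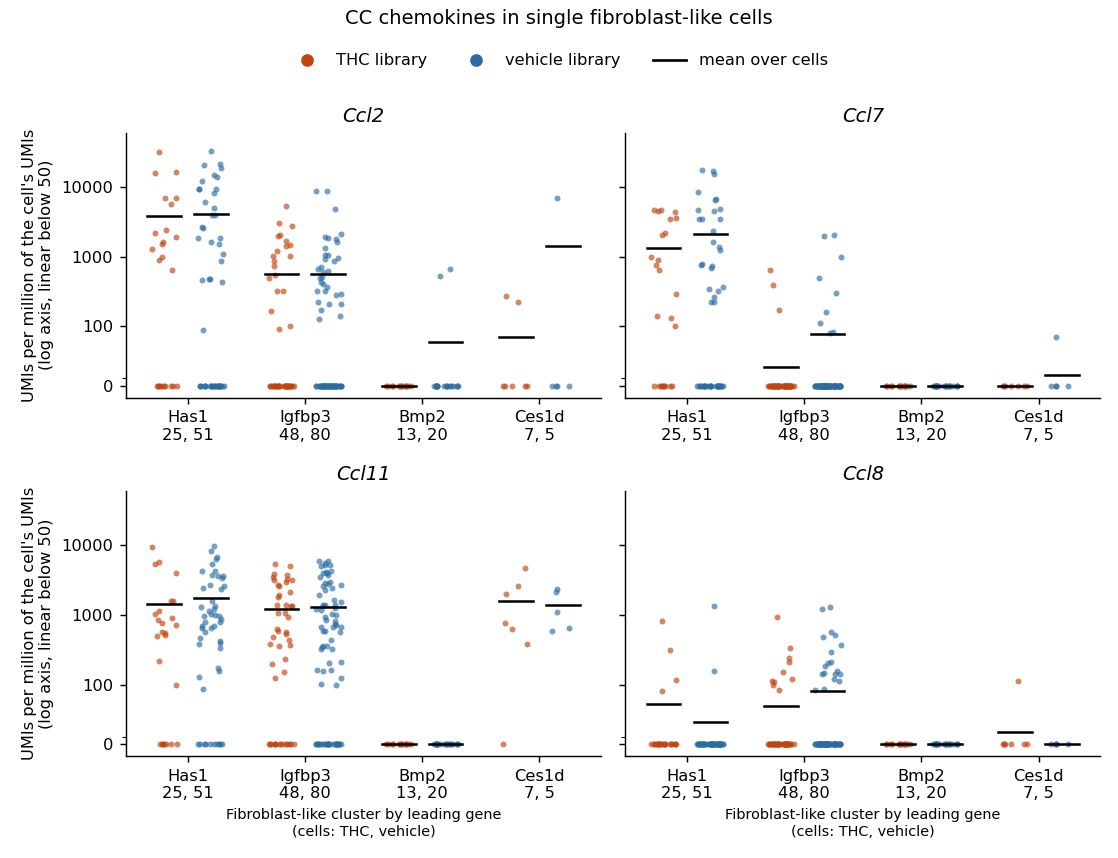
Level of Ccl2, Ccl7, Ccl11 and Ccl8 in every fibroblast-like cell, as CPM of the cell's own UMIs (y axis, log scale, linear below 50), by cluster and library, with lines for the mean over cells. Ccl2 and Ccl7 were highest in the Has1-led cluster, Ccl11 was spread over 3 clusters, and the Bmp2-led cluster had no Ccl7, Ccl8 or Ccl11 UMI.

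Ccl2, Ccl7 and Ccl11 overlapped within fibroblast-like cells without coinciding, while the overlap of Ccl8 with Ccl2 and Ccl7 differed between the libraries. Of the cells with Ccl7, 13 of 19 THC and 24 of 36 vehicle cells also held Ccl2 (68.4% and 66.7%). Among cells without Ccl7 the shares with Ccl2 were 32.4% and 33.3%. Of the cells with Ccl2, 35.1% and 37.5% held Ccl7. Ccl11 was found in 16 of 19 THC and 34 of 36 vehicle cells with Ccl7 (84.2% and 94.4%), and in 62.4% and 65.4% of all cells of the class. Of the cells with Ccl8, 10 of 15 THC and 6 of 21 vehicle cells held Ccl2 (66.7% and 28.6%), against 34.6% and 43.0% without Ccl8. Ccl7 was in 5 of 15 and 3 of 21 cells with Ccl8 (33.3% and 14.3%), against 17.9% and 24.4% without. No UMI of Ccl2, Ccl7, Ccl8, Ccl11 or any other member was found in 24 of 93 and 37 of 156 cells of the class, while 19 and 30 cells held 3 or more members. These shares are unthinned.

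Between the libraries, Ccl7 was the fibroblast member that differed most. Its 220 THC and 891 vehicle UMIs gave 321 CPM (280 to 367) and 790 CPM (739 to 844), a log2 ratio of THC over vehicle of -1.30 (-1.52 to -1.08), 2.46-fold lower in the THC library. Ccl2 had a log2 ratio of -0.41 (-0.52 to -0.30), Ccl8 of -0.48 (-1.19 to 0.20) and Ccl11 of -0.20 (-0.32 to -0.07). Thus 1 of 4 members with at least 20 UMIs was at least 2-fold lower in THC cells, beside 2.9% of 7996 genes of the class, and 0 of 4 were at least 2-fold higher, beside 2.01%. The median over the 4 was -0.45, against 0.02 over all genes tested. The members were chosen with this contrast known, so nothing is read from their count.

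The Ccl2 value rested on few cells. In the Has1-led cluster, 1 THC cell held 435 of the 980 UMIs (44.4%), together with 62 Ccl7 UMIs, and without the richest cell of each library the log2 ratio was -1.06. With the clusters weighted to the same mix in both libraries, it was -0.04. Within the Has1-led cluster the Ccl2 ratio was 0.09 (-0.03 to 0.22) and became -0.75 without the richest cells. Within the Igfbp3-led cluster it was -0.07 (-0.34 to 0.19).

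The lower Ccl7 level of the THC library was present within clusters. The log2 ratio was -0.77 (-0.998 to -0.55) in the Has1-led cluster and -0.88 without the richest cell of each library. In that cluster 0 of 4 members were at least 2-fold lower, beside 6.85% of 3549 genes, and 0 of 4 higher, beside 2.7%. In the Igfbp3-led cluster it was -1.60 (-2.69 to -0.65) on 11 THC and 53 vehicle UMIs, and Ccl7 was 1 of 4 members at least 2-fold lower there, beside 2.99% of 5525 genes, with 0 of 4 higher, beside 2.75%. With the same mix of clusters it was -0.82, so the 2-fold line was no longer passed. Shares of positive cells overlapped in their intervals: after thinning Ccl7 was held by 11.8% of the THC cells (6.05 to 20.2) and 17.3% of the vehicle cells (11.7 to 24.2), or 20.4% and 23.1% unthinned.

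All 8 genes of the adventitial fibroblast list had a log2 ratio below 0 in the class, with a median of -0.38, and 2 of 8 were at least 2-fold lower, beside 2.9% of all genes of the class: Pi16, an adventitial marker (49 and 234 UMIs, -1.54), and Mfap5, a microfibril protein (164 and 603 UMIs, -1.16). The intervals of Cd34, Cd81, Dpp4 and Ly6c1 included 0. Of the list of subepithelial fibroblasts, 5 of 6 genes were above 0 with a median of 0.37, and Wnt5a, a signalling ligand, was at least 2-fold higher (43 and 33 UMIs, 1.10, 0.41 to 1.80), beside 2.01% of all genes. Of the lamina propria list 3 of 4 were above 0, while Cxcl13, a B cell chemoattractant, had 11 and 447 UMIs (-4.62, -5.64 to -3.77), 228 of the 447 in 1 cell. Reweighted values are given above, and the part of the cluster mix in the Ccl7 ratio was not tested. When the libraries were clustered separately, all 25 THC cells of the Has1-led cluster were named mesothelial-like and left the fibroblast-like class. Its 51 vehicle cells stayed in the class. The Ccl7 ratio was then -5.21 and the Ccl2 ratio -2.32, values that compare classes of unlike make-up.

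**Figure D3:**
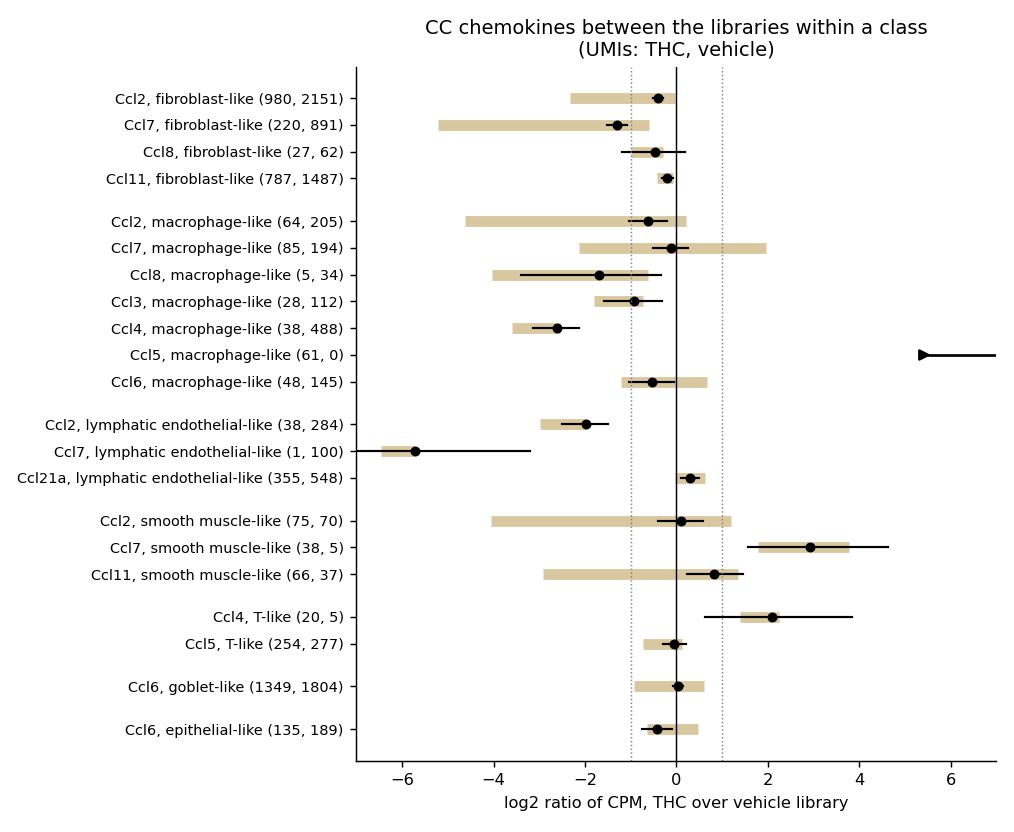
Log2 ratio of CPM, THC over vehicle library (x axis), for the 21 pairs of gene and class with at least 20 UMIs, with exact 95% intervals for counting error (black lines) and the range over the other ways of processing (tan bars). UMI totals stand in brackets (THC, vehicle), dotted lines mark 2-fold, the arrow marks the lower bound for Ccl5 in macrophage-like cells, and the line of Ccl7 in lymphatic endothelial-like cells runs beyond the left edge.

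Macrophage-like cells, 14 THC and 38 vehicle, carried the inflammatory members Ccl3 and Ccl4, which draw leukocytes to inflamed tissue. Ccl4 had 38 THC and 488 vehicle UMIs, or 369 CPM (261 to 506) and 2260 CPM (2064 to 2470). Of the cells, 7 of 14 and 21 of 38 held it, with up to 13 UMIs in a THC cell and up to 150 in a vehicle cell. After thinning the shares were 21.4% (4.66 to 50.8) and 47.4% (30.98 to 64.2), with overlapping intervals. Unthinned, Ccl4 was held by 1 of 37 and 3 of 69 B-like cells, which should lack most of it, at median depths of 3106 and 3133 UMIs, and by 0 of 84 and 0 of 127 epithelial-like cells. In THC barcodes with under 100 UMIs it stood at 14.7 CPM, against 14.03 CPM over all kept THC cells. The log2 ratio in macrophage-like cells was -2.62 (-3.13 to -2.14), 6.13-fold lower in the THC library. It lay between -3.60 and -2.54 over 13 other ways of processing, and without the 3 richest cells of each library it was -2.98.

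Ccl3 had 28 THC and 112 vehicle UMIs, or 272 and 519 CPM, in 7 of 14 and 22 of 38 macrophage-like cells. Its log2 ratio was -0.93 (-1.59 to -0.32), under the 2-fold line, and it passed that line in 6 of 13 other ways of processing. Most cells with Ccl4 also held Ccl3, 5 of 7 THC and 17 of 21 vehicle cells. The median depth of the class was 6384 THC and 5085 vehicle UMIs per cell.

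The other members of this class were Ccl2, Ccl7, Ccl8 and Ccl6. Ccl2 had 64 and 205 UMIs with a log2 ratio of -0.61 (-1.04 to -0.20), and Ccl7 had 85 and 194 UMIs with a ratio of -0.12 (-0.51 to 0.25). The same THC cell had 44 of the 64 Ccl2 UMIs and 65 of the 85 Ccl7 UMIs, and without the richest cell of each library the ratios were -1.92 and -1.70. Without the 3 richest cells of each library they were -4.62 and -2.13, and with a mitochondrial limit of 5% they were 0.21 and 1.96. The 8 fibroblast markers summed to 0 THC and 207 vehicle UMIs (959 CPM) in these cells, with all 8 present in the vehicle cells. Their part in the vehicle Ccl2 and Ccl7 values was not tested. Ccl8 had 5 and 34 UMIs (-1.70, -3.41 to -0.34), and -0.85 without the richest cell of each library. Ccl6 had 48 and 145 UMIs (-0.53, -1.03 to -0.05), a ratio that was above 0 in 3 of 13 other ways of processing.

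In all, 2 of 7 members with a value in this class, Ccl4 and Ccl8, were at least 2-fold lower in the THC library, beside 10.9% of 2258 genes, and 1 of 7, Ccl5, was higher, beside 3.45%. Ccl5 had 61 THC and 0 vehicle UMIs in the class, at least 42.6-fold higher against a floor of 3 UMIs in the vehicle class, and the exact 95% interval of the log2 ratio began at 5.07. Of the 61 UMIs, 53 lay in 1 cell and 8 in another. The cell with 53 also held 24 C1qa and 43 C1qb UMIs, 4 of Nkg7 and 1 of Cd3e. T cell markers summed to 29 THC UMIs in the class, with 6 of 8 markers present, and to 37 vehicle UMIs, all of Cd4. Their part in the Ccl5 value was not tested.

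Ccl21a, the ligand of Ccr7, marked lymphatic endothelial-like cells almost completely. All 13 THC and all 25 vehicle cells of the class held it, and after thinning 92.3% and 96% still did. THC cells had from 10 to 63 UMIs with a median of 27, and vehicle cells from 3 to 142 with a median of 12. The level was 4592 CPM (4126 to 5095) and 3748 CPM (3441 to 4075). Outside the class only 1 THC and 2 vehicle UMIs were found, in a goblet-like, a T-like and an epithelial-like cell. The log2 ratio was 0.29 (0.10 to 0.49), under 2-fold, and -0.04 when the libraries were clustered separately, where 4 THC blood endothelial-like cells joined the class.

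The same cells held the inflammatory members Ccl2 and Ccl7 mainly in the vehicle library. Ccl2 had 38 UMIs in 2 of 13 THC cells and 284 UMIs in 12 of 25 vehicle cells, or 491 and 1942 CPM. Ccl7 had 1 UMI in 1 THC cell and 100 UMIs in 5 vehicle cells. After thinning, Ccl2 was left in 7.69% of the THC cells (0.195 to 36.03) and 36% of the vehicle cells (17.97 to 57.5), with overlapping intervals. The log2 ratio of Ccl2 was -1.98 (-2.51 to -1.49), 3.95-fold lower in the THC library, and lay between -2.99 and -1.97 over 12 other ways of processing. That of Ccl7 was -5.72 (-11.04 to -3.21) on a single THC UMI, and 52 of the 100 vehicle UMIs came from 1 cell. Thus 2 of 3 members were at least 2-fold lower, beside 5.55% of 1839 genes of the class, and 0 of 3 higher, beside 3.53%. In these cells the 8 fibroblast markers summed to 0 THC and 3 vehicle UMIs, and the 9 macrophage markers to 2 and 5.

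T-like cells, 23 THC and 31 vehicle, were the main source of Ccl5, or RANTES, a product of effector T and natural killer cells. Ccl5 had 254 and 277 UMIs, or 2611 CPM (2300 to 2953) and 2695 CPM (2387 to 3032). It was held by 10 of 23 and 16 of 31 cells, or 39.1% and 45.2% after thinning, and by 0 of 84 and 0 of 127 epithelial-like cells. The log2 ratio was -0.05 (-0.30 to 0.20), and -0.73 when the libraries were clustered separately, where the NK or innate lymphoid-like cells and 6 THC plasma-like cells joined the class. Among cells with Ccl5, Ctsw, a cathepsin of cytotoxic cells, was found in 9 of 10 THC and 13 of 16 vehicle cells, and Nkg7, a granule protein, in 7 and 11. Among cells without Ccl5, Ctsw was found in 4 of 13 and 4 of 15, and Nkg7 in 4 and 3. Klrk1 and Gzmb did not follow the same split in both libraries. Klrk1 was in 1 of 10 THC and 4 of 16 vehicle cells with Ccl5, and in 5 of 13 and 3 of 15 without. Gzmb was in 3 of 10 and 1 of 16 cells with Ccl5, and in 0 of 13 and 2 of 15 without. Cd8a or Cd8b1 was detected in 3 of 10 and 3 of 16 cells with Ccl5, and Cd4 in 0 and 2.

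Ccl4 in T-like cells had 20 THC and 5 vehicle UMIs, each in 2 cells, a log2 ratio of 2.08 (0.62 to 3.85). With that, 1 of 2 members was at least 2-fold higher, beside 4.39% of 1481 genes, and 0 of 2 lower, beside 5.54%. Macrophage markers were at 0 in the T-like cells of both libraries. Beside the macrophage-like cells above, dendritic-like cells held 31 THC and 132 vehicle Ccl5 UMIs. Of the 132, 131 came from 1 cell that scrublet marked as a doublet and that also held 95 H2-Ab1, 9 Col1a1 and 5 Dcn UMIs. Without marked doublets, T-like cells held 99.6% of the vehicle Ccl5 UMIs.

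**Figure D4:**
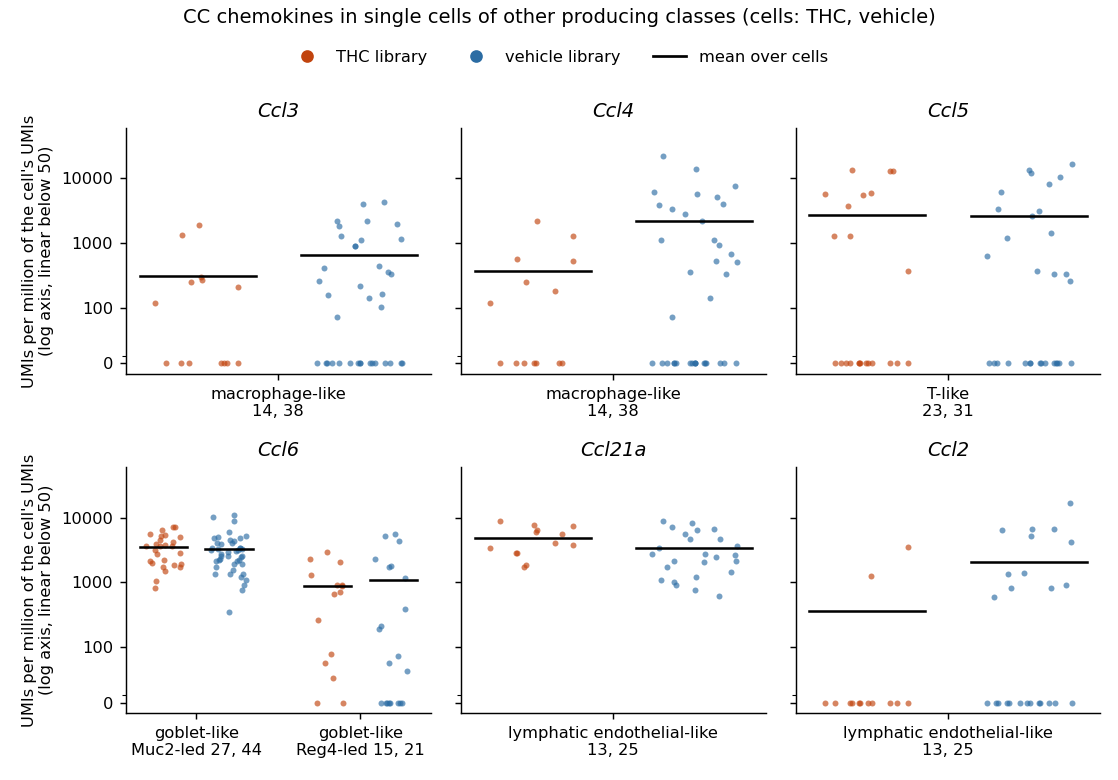
Level of a member in every cell of its class, as CPM of the cell's own UMIs (y axis, log scale, linear below 50), by library, with lines for the mean over cells. All lymphatic endothelial-like cells held Ccl21a, all Muc2-led goblet-like cells held Ccl6, and vehicle macrophage-like cells reached higher Ccl4 levels than THC cells.

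Ccl6, a chemokine of rodents best known from myeloid cells, lay mainly in goblet-like cells here. It had 1349 UMIs in 42 THC and 1804 UMIs in 65 vehicle goblet-like cells, or 2200 and 2147 CPM, and 76.2% and 78.5% of thinned cells held it (95.2% and 87.7% unthinned). The cells were not uniform. In the cluster led by Muc2, Plet1 and Spdef all 27 THC and all 44 vehicle cells held Ccl6, at 3382 and 2954 CPM. In the cluster led by Reg4, Retnlb and Mptx1 13 of 15 and 13 of 21 cells did, at 754 and 902 CPM. The Muc2-led cluster, richer in Ccl6, took its goblet name from 4 of the 8 goblet markers, Muc2, Agr2, Spink4 and Spdef. Tff3, Zg16, Clca1 and Fcgbp did not pass the naming limits in it. All 8 passed in the Reg4-led cluster. Macrophage-like cells held 2.98% and 6.71% of all Ccl6 UMIs, in 11 of 14 and 25 of 38 cells. The 9 macrophage markers gave 34 and 48 UMIs in the goblet-like cells (55.5 and 57.1 CPM), with C1qb, C1qc, Csf1r, Adgre1, Lyz2 and Fcgr1 at 0 in both libraries. All 48 vehicle UMIs were of C1qa, while the THC UMIs were of C1qa, Cd68 and Mrc1.

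Free RNA was higher for Ccl6 than for any other member. THC barcodes with under 100 UMIs held it at 310 CPM, against 364 CPM in the kept THC cells, while the other 9 members stood between 1.22 and 28.1 CPM there. Within kept cells it was nonetheless at or near 0 in classes that should lack it, with 1 and 2 UMIs in fibroblast-like cells (1.46 and 1.77 CPM) and 0 and 1 UMI in B-like cells. Epithelial-like cells had 135 and 189 Ccl6 UMIs in 13 of 84 and 25 of 127 cells.

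The Ccl6 level of goblet-like cells was near level between the libraries. The log2 ratio was 0.04 (-0.07 to 0.14), with 0 of 1 members past 2-fold beside 2.21% of 6790 genes lower and 2.8% higher. It was 0.20 (0.08 to 0.31) in the Muc2-led cluster, beside 2.77% of 5024 genes at least 2-fold lower and 2.93% higher. In the Reg4-led cluster it was -0.26 (-0.52 to 0.0025), beside 5.26% of 3976 genes lower and 4.35% higher. With a mitochondrial limit of 5% the ratio of the class was -0.93. In epithelial-like cells it was -0.42 (-0.75 to -0.10), with 0 of 1 past 2-fold beside 3.32% of 9452 genes lower and 1.07% higher, and it was above 0 in 3 of 12 other ways of processing.

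Ccl1, a ligand of Ccr8, was confined in these kept cells to the cluster led by Il5, Ccl1, Il4, Calca and Il13. The cluster took its name from Nkg7, Rora, Il7r and Gata3, while Ncr1, Klrb1c, Klrk1 and Eomes, markers of natural killer cells, were at 0. Ccl1 was found in 3 of 4 THC cells, with 113, 17 and 3 UMIs, and in 3 of 9 vehicle cells, with 12, 11 and 5 UMIs. All 6 cells held Gata3, the transcription factor of type 2 lymphocytes, and Ccr8, and none held Cd3e or Cd3d. The 3 THC cells had 65 Il13 and 64 Il4 UMIs, of which 58 and 56 lay in 1 cell for each gene. The 3 vehicle cells had 1 and 1, and the 6 vehicle cells of the cluster without Ccl1 had 3 and 23. Both groups are below 10 cells, so no ratio is given. With coarser clustering, separate clustering of the libraries or a mitochondrial limit of 20%, no class of this name was formed.

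Smooth muscle-like cells carried small amounts of 3 fibroblast members. In the THC library, 1 cell held 69 of 75 Ccl2 UMIs, 38 of 38 Ccl7 UMIs and 43 of 66 Ccl11 UMIs of the class. It was the THC barcode that scrublet marked as a doublet, and it also held 115 Acta2 and 22 Myh11 UMIs of smooth muscle beside 18 Dcn and 14 Col3a1 UMIs of fibroblasts. The vehicle smooth muscle-like cells had 70, 5 and 37 UMIs, in 12, 2 and 8 cells with at most 27, 3 and 11 in a cell. With that cell included, the log2 ratio was 0.09 (-0.40 to 0.58) for Ccl2, 2.92 (1.57 to 4.62) for Ccl7 and 0.83 (0.23 to 1.45) for Ccl11. So 1 of 3 members was at least 2-fold higher, beside 1.77% of 5978 genes, and 0 of 3 lower, beside 4.65%. With marked doublets removed the Ccl2 ratio was -3.52 and the Ccl11 ratio -0.66, and Ccl7 had too few UMIs for a ratio.

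Other CC ligands had fewer UMIs than most members. However, Ccl9 (134 THC and 159 vehicle UMIs) and Ccl20 (113 and 155) had more than the members Ccl3 (35 and 118) and Ccl8 (32 and 97). Of 13 further ligands, 6 reached 50 UMIs over both libraries and 3 were at 0. Ccl9, the neighbour of Ccl6, shared its classes, with 53 THC and 82 vehicle UMIs in goblet-like and 27 and 42 in macrophage-like cells. In goblet-like cells 18 of 19 THC and 27 of 33 vehicle cells with Ccl9 also held Ccl6 (94.7% and 81.8%). Of the goblet-like cells without Ccl9, 95.7% and 93.75% held Ccl6, so cells with Ccl9 held Ccl6 no more often. Ccl20, which draws cells bearing Ccr6, had 103 and 148 UMIs in epithelial-like cells, and Ccl28, a mucosal chemokine, 58 and 55. Of the Ccl20 UMIs, 61 THC and 109 vehicle ones came from 1 cell of each library. Ccl25, the ligand of Ccr9, had 43 and 18 there with a log2 ratio of 1.32 (0.50 to 2.20), and 28 of the 43 THC UMIs came from 1 cell. Ccl9 had 4 and 21 there, a ratio of -2.33 (-4.33 to -0.76), and 19 of the 21 vehicle UMIs came from 1 cell. Ccl22 had 66 UMIs in 3 THC dendritic-like cells, 54 of them in 1 cell, and 2 UMIs in 2 vehicle ones.

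The receptors of the members were found on leukocyte classes. Of 10 CC chemokine receptors 6 reached 50 UMIs and 1, Ccr3, the receptor of Ccl11, was at 0. Ccr1 had 42 THC and 66 vehicle UMIs in macrophage-like cells. Ccr2 had 17 and 11 there, a log2 ratio of 1.70 (0.52 to 2.94), and 10 and 22 in T-like cells, a ratio of -1.06 (-2.30 to 0.08). Ccr7, the receptor of Ccl21a, had 81 and 126 in B-like, 16 and 54 in T-like and 46 and 115 in dendritic-like cells. Its ratio in T-like cells was -1.68 (-2.58 to -0.85). Ccr8, the receptor of Ccl1, had 21 and 24 UMIs in the same small cluster as its ligand, in 4 of 4 and 7 of 9 cells. Among atypical receptors, Ackr3 had 151 and 277 UMIs in fibroblast-like cells and 54 and 79 in lymphatic endothelial-like cells, where Ackr2, a scavenger of inflammatory CC chemokines, had 12 and 16. Ccrl2, which binds chemerin, had a log2 ratio of -0.96 (-1.39 to -0.56) in macrophage-like and 0.95 (0.51 to 1.396) in fibroblast-like cells.

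Genes known to induce the members were read in the producing classes, and the values of fibroblast-like, macrophage-like and T-like cells are given here. In fibroblast-like cells 6 of 13 inducers and their receptors had a value, 2 of them at least 2-fold lower, beside 2.9% of all genes of the class, and their median log2 ratio was -0.31 against 0.02 over all genes. The 2 were Il13ra1 (8 and 32 UMIs, -1.28, -2.61 to -0.13) and Il17ra (5 and 20 UMIs, -1.28, -3.05 to 0.18), the second with an interval that includes 0. The transcription factor list, with genes such as Nfkb1, Rela and Jun, also holds the NF-κB inhibitor gene Nfkbia. All 7 of its genes stayed under 2-fold, beside 2.9% of all genes of the class lower and 2.01% higher. Their median was 0.22, against 0.02 over all genes, with 6 of 7 above 0. In macrophage-like cells 5 inducers or receptors stayed under 2-fold, beside 10.9% of 2258 genes lower and 3.45% higher. Their median was -0.37, against -0.08 over all genes of the class. The 5 genes of the transcription factor list with a value there also stayed under 2-fold, with 4 of 5 below 0 and a median of -0.34. Il1b, the gene of interleukin 1 beta, had 89 and 304 UMIs there, a log2 ratio of -0.70 (-1.06 to -0.36). Jun had 43 and 175, a ratio of -0.96 (-1.47 to -0.47). The intervals of Nfkb1, Rela, Nfkbia and Stat6 included 0 there. In T-like cells the 3 inducer receptors with a value, Tnfrsf1a, Ifngr1 and Il4ra, stayed under 2-fold with a median of -0.07. Of all 1481 genes of that class 5.54% were lower and 4.39% higher, with a median of -0.01. Of the transcription factor list 2 of 6 genes were at least 2-fold higher in T-like cells, beside the same 4.39%. They were Jun (66 and 18 UMIs, 1.95, 1.18 to 2.79) and Rela (21 and 7 UMIs, 1.66, 0.38 to 3.14). Of the 6 ratios 4 lay below 0, with a median of -0.30.

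The genes whose pattern was most like that of each member were read from Pearson's r of log2(CPM + 10) over 18 points, 9 classes in 2 libraries, among 11320 genes. The points share libraries and cells, so r is a description. For Ccl2 these were Rassf8, Creb5 and Tnfaip2 (0.94, 0.94 and 0.93), and for Ccl7 they included Plau and Sulf2 (0.94 each). Ccl11 was closest to Ms4a4d, Sdk1 and Efemp1 (0.99 each) and Ccl8 to Vcam1 (0.99), Emilin2 and Pla2g7. Those of Ccl4 included Slc15a3 and Tyrobp (0.96 each), and Ccl3 was closest to Slc15a3 (0.98), Lrrc25 and Lilrb4a. Ccl5 was closest to Klrk1 (0.99), Nkg7 and Ctsw, Ccl6 to Stra6l (0.96), Rbm47 and Entpd7, and Ccl21a to Lcn2 (0.9997), Gpihbp1 and Reln. Ccl1 had no UMI in the 9 classes and no such value.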

How the data were processed

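Colon cells of 1 THC and 1 vehicle library were measured with the 10x Genomics 5' kit. The deposited values are raw UMI counts per gene and barcode, made by the authors with Cell Ranger 3.0.2, per the file headers. Bcl2fastq and Seurat are further tools per the submitters' processing notes. With build and annotation not given in the sources used here, no coordinates are printed. The THC matrix listed 737280 barcodes, 106628 of them with a UMI. The vehicle matrix listed 973, none below 502 UMIs. The same minimum of 1000 UMIs was applied to both.

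Counts of each cell were scaled to 10000 and log-transformed. The 2000 most variable genes of each library were combined to 2965, leaving out genes of chemokines and their receptors, antigen receptors, ribosomes and mitochondria and those linked to sex. With 30 principal components, 15 neighbours and Leiden resolution 1 (scanpy 1.11.5) there were 23 clusters. A name needed 3 markers, each held by at least 10% of the cluster's cells with a mean 1 log2 unit or more above the remaining cells. The naming rule was set with the data in view. It gave 16 classes and left 0 clusters unnamed. The authors' own cell annotation was not used here.

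Class sums were compared as CPM with exact conditional Poisson intervals, for classes of 10 or more cells per library and genes with at least 20 UMIs in the class. The interval procedure was tested on simulated data. The named genes are the 10 members, genes of 8 lists (other ligands, receptors, atypical receptors, inducers, transcription factors and 3 kinds of fibroblast) with at least 50 UMIs, and, for each member with at least 100 UMIs, the 3 most similar genes among those with at least 50. Single genes below these limits, and those read in single cells, were named after their values were seen. A few genes that the rule names are not reported here. Members and lists were chosen with earlier results of these data known. Scrublet marked 1 THC and 1 vehicle barcode (0.253% and 0.159%), which were kept and removed in an alternative. TMM factors came from edgeR 4.0.16. Other settings varied the UMI and mitochondrial limits, clustering, thinning, scaling and the richest cells.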

Additional observations from a re-analysis of the deposited data

Results flagged for a closer look

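Members whose ratio of THC over vehicle pointed in opposite directions in different classes were set beside each other, and with 1 library per treatment none of these differences was tested. Ccl4 was lower in THC macrophage-like cells and higher in THC T-like cells, a difference of 4.69 on the log2 scale. The T-like value rests on 20 THC and 5 vehicle UMIs, each in 2 cells. Ccl7 was higher in THC smooth muscle-like cells than in vehicle ones, while it was lower in fibroblast-like cells, a difference of 4.22, and in lymphatic endothelial-like cells, a difference of 8.64. Ccl11 differed by 1.03 between smooth muscle-like and fibroblast-like cells. In the smooth muscle-like cells, all 38 Ccl7 UMIs and 43 of 66 Ccl11 UMIs of the THC library came from the barcode that scrublet marked as a doublet.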

How the results depend on the processing

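No paired analysis was possible because each treatment has 1 library and the labels carry no replicate numbers. The log2 ratio of Ccl4 in macrophage-like cells stayed below -2.5 under 13 alternatives, and was -3.19 with cells thinned, -3.54 when the libraries were clustered separately (own clusters below) and -3.60 with a mitochondrial limit of 5%. Ccl7 in fibroblast-like cells stayed below 0 under 14 alternatives and 2-fold lower in 10. It was -0.59 thinned, -0.96 with equal weight for each cell, -0.96 at the 5% limit, -1.84 without the 3 richest cells of each library, -0.82 at the same mix of clusters and -5.21 with own clusters. The last value is among the 10, and it compares a THC class without its Has1-led cells with a vehicle class that kept them. Under the same settings Ccl2 was -0.23 thinned, -0.12 at the 5% limit, -1.06 and -1.35 without the 1 or 3 richest cells, -0.04 at the same mix and -2.32 with own clusters, and Ccl11 was -0.42 thinned. The same mix and the 3 richest cells were added after the data had been seen. Ccl3 in macrophage-like cells was -1.80 with own clusters and -1.75 without the 3 richest cells. Ccl5 in T-like cells was -0.73 with own clusters. Ccl6 in goblet-like cells was -0.12 thinned, 0.60 with own clusters and -0.93 at the 5% limit. Ccl21a was -0.04 with own clusters, 0.50 when cells had equal weight and 0.63 without the 3 richest cells. Without a minimum of UMIs 38 pairs of member and class had a ratio in place of 21. The settings with another cluster mix, without the richest cells or with other class names are further calculations on the same libraries. The cause of these shifts was not tested. TMM and median ratio scaling moved no class by over 0.1. With 14 macrophage-like and 13 lymphatic endothelial-like THC cells, a share of cells is known only within wide intervals.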
